A study of Homo sapiens with 6 samples.

Results

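The BCL2 family of apoptosis regulators was described in H1975 cells through 10 genes, chosen by symbol among the 27216 rows of the expression table: the BH3-only genes BCL2L11 (BIM), BMF, BBC3 (PUMA), PMAIP1 (NOXA) and BIK, the pro-survival genes BCL2, BCL2L1 (BCL-XL) and MCL1, and the pore-forming effectors BAX and BAK1. H1975 is a human non-small cell lung cancer line with a mutant EGFR, labelled WT for genotype in all 6 samples, and osimertinib (Osi) is a tyrosine kinase inhibitor directed at mutant EGFR. The comparison was between 3 parental samples (Osi for 0 h) and 3 adapted samples (Osi at 1000 nM for 72 h), and it asks how the RNA of cells that remained on the drug differs from that of the cells before it. Per the labels, apoptotic cells were removed by washing before RNA was taken, so the adapted samples hold the cells that were left. In the table the parental samples carry the name of the solvent DMSO, but no source used here says whether those cells received it or how long they were cultured. Time in culture and the drug therefore cannot be told apart. The labels describe an RNase R step, which digests linear RNA, whereas the study's methods name total RNA without it. The study calls its experiments independent in general terms, but neither the labels nor its account of the RNA sequencing says whether the 3 samples of a group were separate cultures, so the p-values measure the spread between these samples, which may be technical.

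Proteins of this family decide whether the outer mitochondrial membrane is opened. BAX and BAK1 form the pores, BCL2, BCL2L1 and MCL1 hold them in check by binding a short helix called the BH3 domain, and the BH3-only proteins carry that helix to the pro-survival proteins or to the effectors. In EGFR-mutant lung cancer cells, loss of EGFR signalling is known for its effects on BIM, whose protein is destabilised by ERK phosphorylation, and the levels of the other members are known to affect how readily the cells die.

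What the members have in common, and what the pro-survival proteins recognise, is the BH3 helix, so the bases that encode it are shown first. Each line gives 39 bases of coding sequence from GENCODE release 29 (GRCh38), read 5′ to 3′ on the strand of the gene. The capitals mark the codon of the conserved leucine and the paired codons of the small residue (glycine or alanine) and aspartate that follow it.
BCL2L11 (chr2:111150091-111150129, plus strand): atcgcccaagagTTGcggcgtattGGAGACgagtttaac
BMF (chr15:40104198-40104236, minus strand): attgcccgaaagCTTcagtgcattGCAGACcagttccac
BBC3 (chr19:47226582-47226620, minus strand): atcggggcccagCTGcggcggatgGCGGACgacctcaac
PMAIP1 (chr18:59902661-59902699, plus strand): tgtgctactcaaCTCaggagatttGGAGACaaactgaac
BIK (chr22:43127704-43127742, plus strand): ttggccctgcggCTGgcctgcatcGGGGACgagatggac
BCL2 (chr18:63318352-63318390, minus strand): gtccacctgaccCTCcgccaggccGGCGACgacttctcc
BCL2L1 (chr20:31721925-31721963, minus strand): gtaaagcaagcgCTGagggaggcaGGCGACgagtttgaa
MCL1 (chr1:150578868-150578906, minus strand): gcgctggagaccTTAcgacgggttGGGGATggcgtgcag
BAX (chr19:48955775-48955813, plus strand): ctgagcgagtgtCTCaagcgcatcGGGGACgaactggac
BAK1 (chr6:33575390-33575428, minus strand): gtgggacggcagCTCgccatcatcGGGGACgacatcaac
Every stretch lay within 1 coding exon, and the pattern was found once in each of the 10 proteins. The small residue was alanine in BMF and BBC3 and glycine in the other 8 members. The proteins themselves differ widely in length, from 54 residues in PMAIP1, where the leucine is residue 29, to 350 in MCL1, where it is residue 213. The expression table holds 1 value per gene, so splice forms with opposite roles, such as the long and short forms of BCL2L1 and of MCL1, were not resolved.

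Levels are given in FPKM (fragments scaled to transcript length and library size), obtained from the deposited log2(FPKM + 1) values. Differences are adapted minus parental on that log2 scale, where the added 1 shrinks the changes of weakly expressed genes. The depth is unknown. All 9 members that could be tested passed the threshold (adjusted p under 0.05, limma), 5 of them higher in adapted cells and 4 lower. Of the 12656 rows tested, 56.9% were called (30.7% higher and 26.2% lower), so being called is common here and the size and direction of each change carry the description. With a log2 difference of at least 1 as well, BMF and (as deposited) BAX were higher and PMAIP1 was lower, against 10.5% of all rows. As deposited, the 2 groups of samples did not overlap in any of the 10 members (9 tested), nor in 66.3% of the rows tested, but for BCL2 this held only with a constant in its adapted values that is described with that gene. The exact permutation test gave p = 0.1 for each member as deposited, the smallest that 3 against 3 samples allow. The median log2 difference of the 9 tested members was 0.30, against 0.03 over all rows, and 0.019 over 8 members against 0.024 when the rows with constants, described with BAX, were left out.

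**Figure D1:**
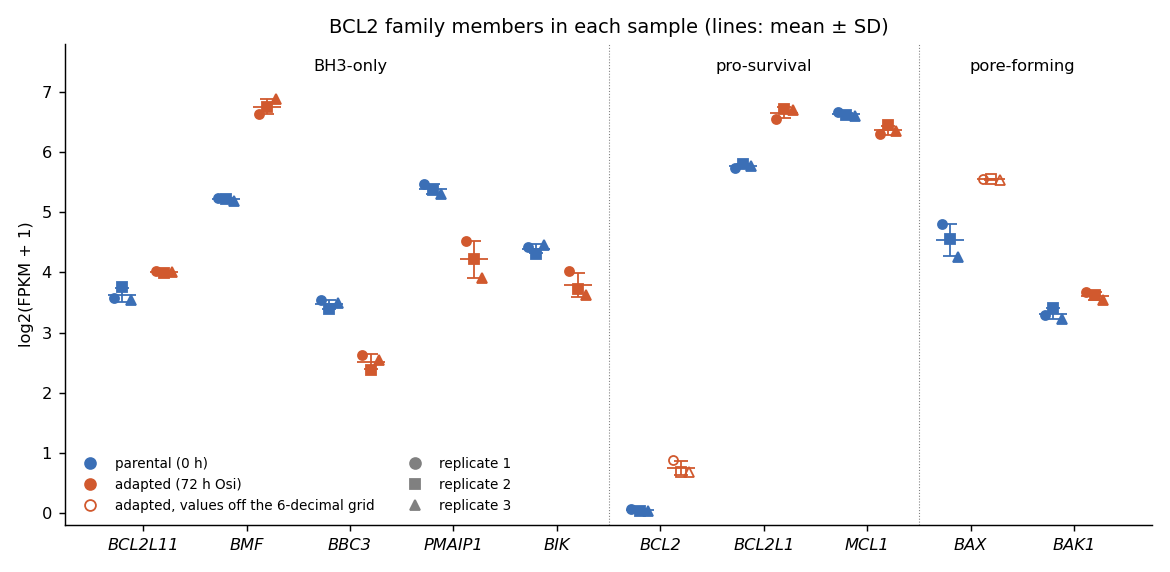
Deposited log2(FPKM + 1) value of each of the 10 members in the 3 parental and 3 adapted samples, with points for samples and lines for the group mean ± SD. As deposited the groups do not overlap in any member, BMF rises most among the tested members, PMAIP1 falls most, and open symbols mark the adapted values of BCL2 and BAX, those of BAX lying almost on top of each other.

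The library checks were these. Replicates were close to each other, with a lowest Pearson correlation across genes of 0.997 between parental samples and 0.991 between adapted samples. The 6 epithelial carcinoma markers (EPCAM, KRT8, KRT18, KRT19, CDH1 and EGFR) lay between 7.08 and 9.88 log2(FPKM + 1) in all 6 samples, and their summed FPKM ran from 3585 to 3615 in parental and from 2679 to 2826 in adapted samples. Of the 4 leukocyte markers, 3 were below 1 FPKM throughout, with CD3E at 0 in every sample, while CD68, which is not limited to leukocytes, brought the sum to between 73.7 and 76.3 FPKM in parental and between 14.6 and 29.6 FPKM in adapted samples. The 4 fibroblast markers stayed below 1 FPKM each, with sums from 0.039 to 0.062 FPKM in parental and from 0.46 to 0.78 FPKM in adapted samples, most of it LUM. The 3 endothelial markers summed to between 1.13 and 1.86 FPKM in parental and between 1.42 and 3.47 FPKM in adapted samples, where the mean of PECAM1 was lower (1.35 and 0.063 FPKM) and that of CDH5 higher (0.16 and 2.39 FPKM). The part of these shifts in the members' changes was not tested. In a bulk sample, fewer cells with a transcript and less transcript per cell cannot be told apart.

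BH3-only genes moved in opposite directions: BMF and BCL2L11 rose, and PMAIP1, BBC3 and BIK fell. BMF, whose protein is held on the cytoskeleton through dynein light chain and released under stress, measured 36.6, 36.1 and 35.6 FPKM in the parental samples and 98.0, 106.9 and 118 FPKM in the adapted samples. The lowest adapted value was far above the highest parental one. BMF rose by 1.54 on the log2 scale (SE 0.08, 95% interval 1.37 to 1.72, limma adjusted p = 8.4e-06), or 2.98 times in mean FPKM, and ranked 236 from the top among all rows tested.

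BCL2L11 encodes BIM, which binds all the pro-survival proteins and can activate BAX directly. It measured 10.8, 12.5 and 10.7 FPKM in the parental and 15.2, 14.9 and 15.1 FPKM in the adapted samples. Its log2 difference of 0.38 (SE 0.07, 95% interval 0.21 to 0.56, adjusted p = 0.00346) was past the threshold but small, at percentile 77.8 of all rows. The adapted samples were nearly identical and the parental spread came from replicate 2.

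PMAIP1 encodes NOXA, which binds MCL1 and favours its degradation. It measured 43.3, 40.2 and 38.7 FPKM in the parental samples and 22.0, 17.7 and 13.98 FPKM in the adapted samples. All 3 adapted samples lay below the lowest parental one, with a wide spread among them. The log2 difference was -1.16 (SE 0.15, 95% interval -1.51 to -0.82, adjusted p = 4.94e-04), at percentile 3.98 of all rows. Without adapted replicate 1, the highest of the adapted samples, it was -1.32.

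BBC3 encodes PUMA, which binds all the pro-survival proteins. Its 3 parental values were 10.6, 9.47 and 10.3 FPKM and its adapted values 5.15, 4.19 and 4.85 FPKM, every adapted sample lying well below every parental one. It fell by 0.96 on the log2 scale (SE 0.09, adjusted p = 1.11e-04), at percentile 5.66. BIK, a BH3-only protein of the endoplasmic reticulum, measured 20.4, 18.9 and 21.0 FPKM in the parental and 15.2, 12.3 and 11.3 FPKM in the adapted samples. It fell by 0.61 (SE 0.11, adjusted p = 0.00251), with adapted replicate 1 again the closest to the parental samples. Adapted replicate 1 was the nearest to the parental mean in 4 of the 5 BH3-only genes and in 5 of the 10 members. The share over all rows was not computed. In the related lists described below it ran from 0 of 7 genes (binding partners and turnover) to 9 of 13 (other BCL2 family).

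**Figure D2:**
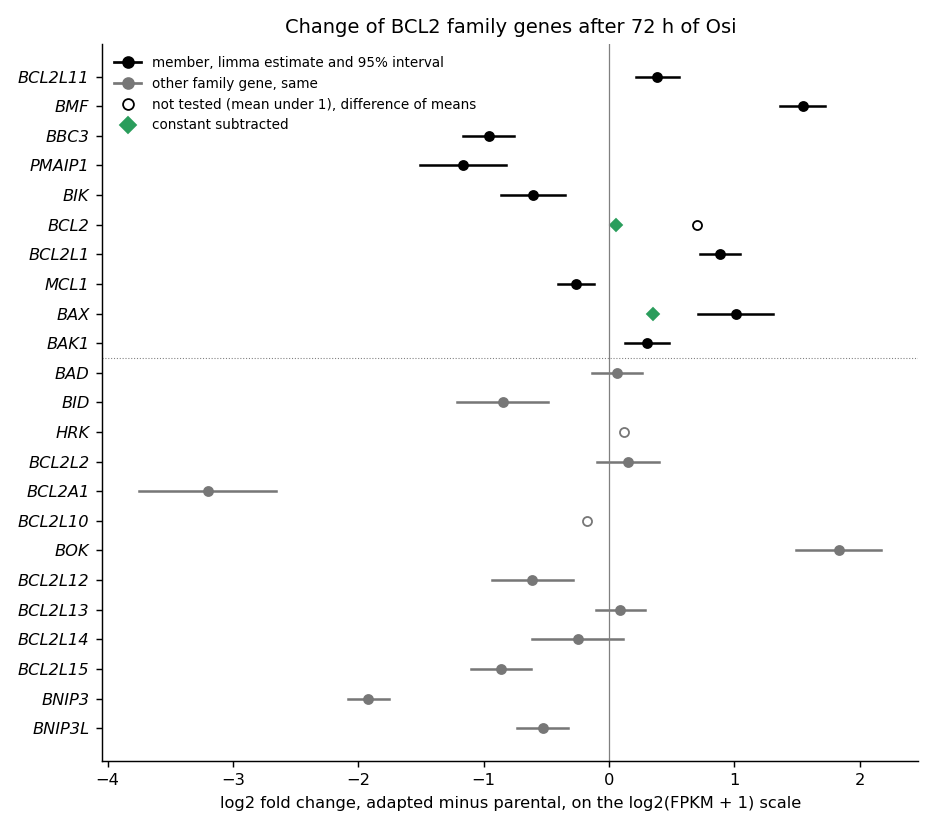
Log2 difference (adapted minus parental) of the 10 members (black) and 13 other genes of the family (grey), with 95% intervals from limma for those tested, open circles for untested genes and diamonds for BAX and BCL2 after a constant was subtracted. BMF (1.54) and PMAIP1 (-1.16) lie farthest from 0 on either side among the members whose values need no such subtraction, and BAX moves from 1.01 to 0.35.

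Because BMF rose while PMAIP1, BBC3 and BIK fell, the shares of the 5 BH3-only members in their sum changed. The summed FPKM of the 5 genes was 118.4 ± 2.9 in parental and 158.2 ± 4.0 in adapted samples (SD, n = 3 each). BMF supplied 30.5% ± 0.4 of this sum in parental and 67.9% ± 4.7 in adapted samples. PMAIP1 went from 34.4% ± 1.2 to 11.4% ± 2.8, BIK from 17.0% ± 1.0 to 8.20% ± 1.45, and BBC3 from 8.54% ± 0.41 to 2.99% ± 0.31. The share of BCL2L11 was 9.59% ± 0.94 and 9.54% ± 0.28, and its groups overlapped. When BAD, BID and HRK, BH3-only genes outside the 10 members, were added to the sum, BMF supplied 24.6% ± 0.4 in parental and 58.5% ± 5.3 in adapted samples. In parental samples BMF and PMAIP1 were close, with a BMF to PMAIP1 ratio of 0.888 ± 0.040. In adapted samples that ratio was 4.45, 6.02 and 8.41. FPKM is scaled per length, which allows these sums, but it says nothing of the proteins.

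Among the pro-survival genes, BCL2L1 rose, MCL1 fell slightly and BCL2 was close to 0 in the parental samples. BCL2L1, whose long form protects the mitochondrial membrane in many epithelial cells, measured 52.3, 55.0 and 53.8 FPKM in the parental and 92.5, 104.7 and 103.7 FPKM in the adapted samples. It rose by 0.89 on the log2 scale (SE 0.07, 95% interval 0.73 to 1.05, adjusted p = 5.61e-05), or 1.87 times in mean FPKM, at percentile 93.0. MCL1, a short-lived pro-survival protein, measured 100.2, 97.2 and 96.2 FPKM in the parental and 77.6, 86.4 and 80.4 FPKM in the adapted samples. Its log2 difference of -0.26 (SE 0.06, 95% interval -0.41 to -0.12, adjusted p = 0.0091) was the smallest of the tested members, and its adjusted p reached 0.0448 when 1 replicate was left out.

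The order of the pro-survival genes accordingly turned over. The BCL2L1 to MCL1 ratio was 0.522, 0.566 and 0.559 in the parental samples and 1.19, 1.21 and 1.29 in the adapted samples, so MCL1 was the higher of the pair in every parental sample and BCL2L1 in every adapted sample. BCL2L2 and BCL2A1, a pro-survival gene under NF-κB control, and BCL2L10 were added to these 3 genes to describe the whole pro-survival pool. Its summed FPKM was 211.7 ± 3.1 in parental and 207.6 ± 11.2 in adapted samples (SD, n = 3 each), and the groups overlapped (exact permutation p = 0.6). Within that sum BCL2L1 went from 25.4% ± 0.5 to 48.3% ± 1.5 and MCL1 from 46.2% ± 1.1 to 39.2% ± 0.4. The share of BCL2A1 went from 19.3% ± 0.2 to 1.85% ± 1.01. BCL2L2 supplied 9.02% ± 0.83 and 10.3% ± 0.7, with overlapping groups.

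**Figure D3:**
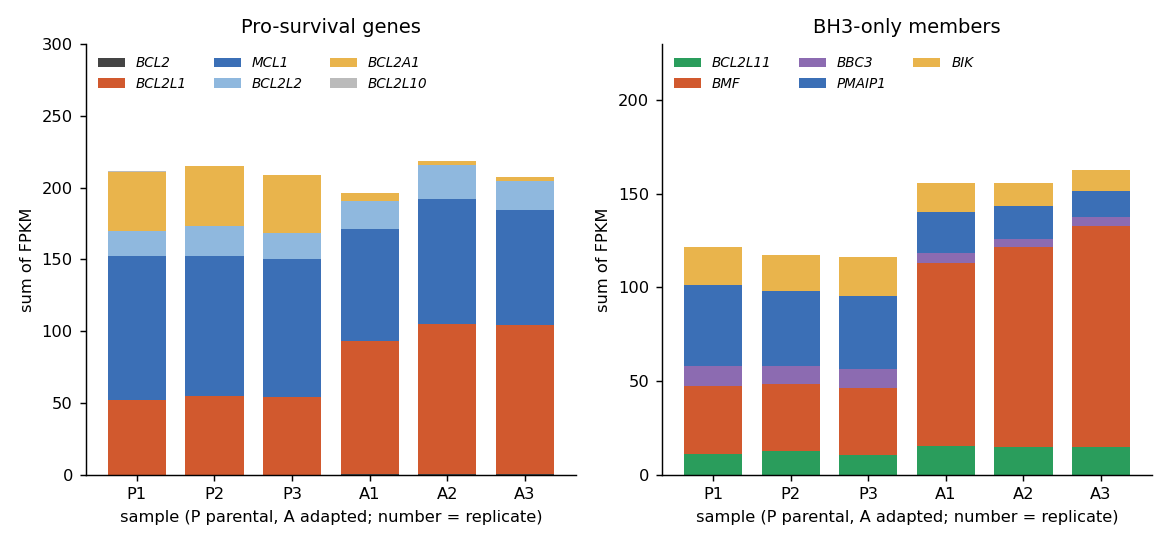
Summed FPKM of the pro-survival genes (left) and of the BH3-only members (right) in each of the 6 samples, as stacked bars with 1 colour per gene. In the adapted samples BMF makes up most of the sum of the 5 BH3-only members (67.9% on average), and BCL2L1 replaces MCL1 as the leading pro-survival gene (48.3% against 39.2%).

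The adapted values of BAX and BCL2 need care before their changes are read. Undoing the logarithm and the added 1 returned numbers of 6 decimals for 27069 rows. For 147 rows this failed in 1 group only, and a single constant taken from the log2 values of that group brought all its samples back to 6 decimals. BAX was among 87 rows with a constant of 0.66 in the adapted samples, and BCL2 among 35 rows with 0.65. The other 8 members had 6 decimals in all samples. The origin of the constants is not stated in the sources used here.

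BAX, the cytosolic effector that moves to mitochondria on activation, measured 26.9, 22.6 and 18.2 FPKM in the parental and 46.1, 45.9 and 45.7 FPKM in the adapted samples. The parental values were the most spread of any tested member on the log2 scale (SD 0.27) and the adapted values the least (SD 0.0067). As deposited the log2 difference was 1.01 (SE 0.13, 95% interval 0.71 to 1.31, adjusted p = 4.79e-04). With 0.66 subtracted, the adapted log2 values were 4.90, 4.89 and 4.89 against 4.80, 4.56 and 4.26 in the parental samples, and the difference was 0.35. Its adjusted p was then 0.0484, and 0.0878 when the filter on low values was dropped as well.

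BCL2, the founding pro-survival gene, was listed at 0.045, 0.020 and 0.025 FPKM in the parental and 0.85, 0.60 and 0.60 FPKM in the adapted samples. Its mean was under the filter, so it was not tested, and the log2 difference was 0.70. With 0.65 subtracted, the adapted log2 values were 0.23, 0.024 and 0.026 against 0.064, 0.029 and 0.036, the groups overlapped and the difference was 0.05. Without the filter the adjusted p was 7.01e-04 for the deposited values and 0.554 after subtraction. BCL2 was the lowest of the 10 members in both groups either way.

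**Figure D4:**
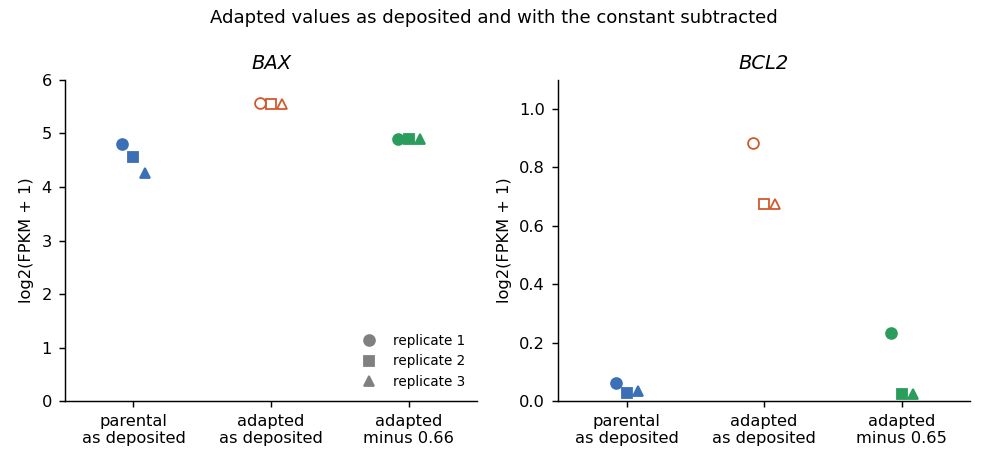
Log2(FPKM + 1) of BAX and BCL2 in each sample, as deposited and with the constant (0.66 or 0.65) subtracted from the adapted values. After subtraction the adapted BAX values (4.89 to 4.90) lie just above the highest parental value (4.80), and the groups of BCL2 overlap.

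BAK1, the effector resident on the mitochondrial membrane and bound there by MCL1 and BCL2L1, measured 8.81, 9.60 and 8.36 FPKM in the parental and 11.7, 11.3 and 10.6 FPKM in the adapted samples. It rose by 0.30 on the log2 scale (SE 0.07, 95% interval 0.13 to 0.47, adjusted p = 0.0105), with an adjusted p of up to 0.0489 when 1 replicate was left out. The BAX to BAK1 ratio was 2.53 ± 0.46 in parental and 4.10 ± 0.18 in adapted samples as deposited. With the constant subtracted the adapted ratio was 2.56 ± 0.11 and the groups overlapped.

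Ordered by FPKM in the parental samples, MCL1 was highest, followed by BCL2L1, PMAIP1, BMF, BAX, BIK, BCL2L11, BBC3, BAK1 and BCL2. Neighbours whose samples overlapped in that order were BAX with BIK and BBC3 with BAK1. In the adapted samples the order was BMF, BCL2L1, MCL1, BAX, PMAIP1, BCL2L11, BIK, BAK1, BBC3 and BCL2. BMF overlapped with BCL2L1, PMAIP1 with BCL2L11, BCL2L11 with BIK, and BIK with BAK1. BMF thus went from below PMAIP1 to level with the pro-survival gene BCL2L1, and BBC3, which had overlapped with BAK1, lay below it.

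Of the other 13 genes of the wider BCL2 family 11 were tested, of which 6 fell, 1 rose and 4 were not called, beside 26.2% of all rows called lower and 30.7% higher. The median log2 difference of the 11 was -0.53, against 0.03 over all rows. The list mixes pro-survival and pro-death genes, and members of both kinds are among those that fell. BCL2A1, which binds BIM and other BH3 proteins, measured 41.2, 41.4 and 40.0 FPKM in the parental and 5.93, 2.84 and 2.54 FPKM in the adapted samples, a log2 difference of -3.20 (95% interval -3.75 to -2.65, adjusted p = 4.57e-05). BNIP3, a hypoxia-induced mitophagy receptor, fell by 1.92 (adjusted p = 2.70e-06), and its relative BNIP3L fell by 0.53. BID, the BH3-only protein that caspase-8 cleaves, went from 7.94, 6.98 and 7.33 FPKM to 4.96, 3.38 and 2.89 FPKM and fell by 0.85 (adjusted p = 0.00275). BCL2L15 fell by 0.86 and BCL2L12 by 0.61.

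BOK, an effector relative of BAX and BAK1, was the 1 gene of this list that rose. It measured 2.03, 1.88 and 2.08 FPKM in the parental and 7.62, 12.1 and 9.73 FPKM in the adapted samples, a log2 difference of 1.83 (95% interval 1.49 to 2.17, adjusted p = 6.51e-05). BOK therefore stayed below BAX in every sample, and its range overlapped that of BAK1 in the adapted ones. BAD, a BH3-only protein governed by survival kinases, had a log2 difference of 0.06 (95% interval -0.14 to 0.26) and was not called, nor were BCL2L2 (0.15, -0.09 to 0.40), BCL2L13 (0.09, -0.10 to 0.28) and BCL2L14 (-0.25, -0.61 to 0.11). HRK and BCL2L10 were under the filter, and BCL2L10 was listed at 0 in all adapted samples.

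Downstream of the pore, 11 of the 12 mitochondrial release and caspase genes were tested, and 2 were higher, 1 was lower and 8 were not called. Over all rows 30.7% were called higher and 26.2% lower. The median of the list was -0.10, against 0.03 over all rows. AIFM1, a mitochondrial flavoprotein that can be released to the nucleus, was higher by 1.03 as deposited (adjusted p = 1.12e-04), but its adapted values carry the constant 0.66, and the difference was 0.37 with it subtracted. CASP9, the initiator activated on the apoptosome, fell by 0.27 (adjusted p = 0.0325), a call lost without parental replicate 1 or 3 or adapted replicate 2 or 3 (0.0667 to 0.125). The call was also lost without the filter (limma adjusted p = 0.0648), with equal sums without mitochondrially encoded genes (0.0546) and with the replicate block. Without adapted replicate 1 the list had 3 genes higher and 2 lower, since CASP6 was called higher (0.25, adjusted p = 0.0168) and ENDOG lower (-0.31, adjusted p = 0.00858). More rows were called in all in that fit (8370, against 7202 with every sample). No other fit leaving out 1 sample gave more than 2 higher and 1 lower. Without parental replicate 1 or 3 or adapted replicate 2, the list had 1 gene higher and none lower.

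The inhibitor of apoptosis proteins, which block caspases or their activation, had 5 of 7 genes tested. Of these 4 fell, none rose and 1 was not called, beside 26.2% of all rows called lower and 30.7% higher. Their median was -0.30, against 0.03 over all rows. The 2 untested genes had higher values in the adapted samples without overlap: NAIP went from between 0.26 and 0.37 FPKM to between 1.13 and 1.38 FPKM and was called without the filter (0.76, adjusted p = 7.06e-04), and BIRC7 went from between 0.089 and 0.28 FPKM to between 0.30 and 0.76 FPKM. BIRC3, an NF-κB target, fell by 2.35 (adjusted p = 1.37e-06), from between 110 and 121 FPKM in the parental to between 20.9 and 23.6 FPKM in the adapted samples. BIRC5, or survivin, which also serves in cell division, fell by 1.34 (adjusted p = 0.00553), with adapted replicate 1 at 15.7 FPKM and the other adapted samples at 7.03 and 6.45 FPKM. XIAP, the direct caspase inhibitor, fell by 0.30 (adjusted p = 0.0211), a call lost without parental replicate 1 or 2 or adapted replicate 3 (0.0546 to 0.0806). BIRC6, the remaining gene called, lost its call without parental replicate 1 or 2 (0.0701 and 0.0768).

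Of the transcription factors known to act on BH3-only genes, 8 of 9 were tested, and 2 rose, 3 fell and 3 were not called. The shares over all rows were 30.7% higher and 26.2% lower. The median of the list was -0.21, against 0.03 over all rows. FOXO4, a forkhead factor restrained by AKT, went from 3.50, 3.68 and 3.58 FPKM to 7.87, 7.59 and 8.85 FPKM and rose by 0.99 (adjusted p = 6.09e-05). The other forkhead factors of the list did not rise and were not called in the main fit. FOXO3 had a log2 difference of -0.07, with mean FPKM of 14.9 in parental and 14.1 in adapted samples. FOXO1 had one of -0.22 (limma adjusted p = 0.0703), and its groups did not overlap. FOXO1 was called lower with quantile normalization (-0.29, limma adjusted p = 0.0323) and with eBayes without the trend (0.0488). DDIT3, or CHOP, the stress factor that acts on BCL2L11 and BBC3, fell by 1.19 (adjusted p = 1.54e-05), TP63 fell by 0.96 and E2F1 fell by 0.63. These are RNA levels, and the activity of these factors was not measured.

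The binding partners and turnover genes of the family were all tested (7 of 7), and 2 rose, 1 fell and 4 were not called. Beside them, 30.7% of all rows were called higher and 26.2% lower. The median of the list was 0.10, against 0.03 over all rows. DYNLL1 and DYNLL2, the dynein light chains that anchor BIM and BMF, rose by 0.51 (adjusted p = 0.00287) and 0.38. USP9X, which removes ubiquitin from MCL1, fell by 0.24, a call lost without parental replicate 1 or 2 (0.0723 and 0.0678).

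**Figure D5:**
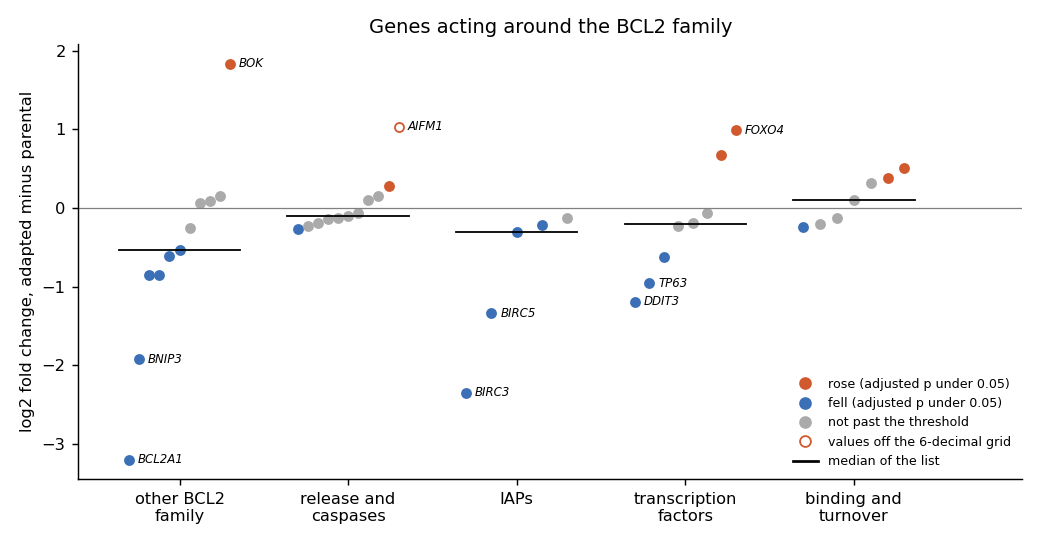
Log2 difference (adapted minus parental) of each tested gene in the 5 related lists, coloured where called by limma, grey where not, open for AIFM1 with its constant, and with a line at the median of each list. Most of the wider BCL2 family and all tested inhibitor of apoptosis genes lie below 0, with BCL2A1 (-3.20) and BIRC3 (-2.35) farthest.

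Promoter sequence was examined for letters of factors on that list or of stress signalling. RefSeq promoter windows (GRCh38.p14, 250 bases before to 50 after each start) were found for 8 of the 10 members, in 10 windows, and MCL1 and BIK had none in the table. The 4 motifs, searched on both strands and chosen after the sequences were seen, were the forkhead letters GTAAACA, the AP-1 letters TGANTCA, the CRE letters ACGTCA and the E-box CACGTG, the last pair sharing ACGT. They occurred in 3.42%, 7.71%, 7.98% and 7.26% of all 35116 promoter windows. A stretch with a match is shown for each of 3 BH3-only genes, BCL2L11 having risen and BBC3 and PMAIP1 having fallen, with the motif in capitals.
BCL2L11, forkhead, 223 bases before the start (chr2:111120664-111120724, plus strand): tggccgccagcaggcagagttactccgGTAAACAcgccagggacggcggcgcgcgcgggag
BBC3, AP-1, 113 bases before the start (chr19:47232747-47232807, minus strand): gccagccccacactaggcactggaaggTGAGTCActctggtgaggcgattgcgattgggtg
PMAIP1, CRE, 56 bases before the start (chr18:59899913-59899972, plus strand): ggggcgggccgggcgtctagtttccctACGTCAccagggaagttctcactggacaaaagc
The starts are those of RefSeq. In GENCODE the gene BCL2L11 begins at base 111119378, before its window, so the forkhead letters lie inside that annotated gene. BAX held 4 E-boxes and BBC3 held 1, which are not shown. No window of BMF, the member that rose most, held any of the 4 motifs. A match describes letters in a window, and binding was not measured. As the motifs were chosen with the sequences in view, whether matches go with the changes was not tested.

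Exons of 6 members overlap those of another gene: MIR4435-2HG with BCL2L11, BMF-AS1 with BMF, MIR3190 and MIR3191 with BBC3, ABALON with BCL2L1, ADAMTSL4-AS1 with MCL1 and GGNBP1 with BAK1. MIR3191 and ADAMTSL4-AS1 lie on the strand of the member, where counting by strand would not separate their reads. The others lie on the opposite strand. Whether the counting used strand is not stated, so the origin of reads from these overlaps is not known.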

How the data were processed

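RNA sequencing was done on 6 samples of H1975 cells. The authors deposited 1 table with a column per sample on a log2 scale, and the unit is not named. It was read as log2(FPKM + 1) because undoing both steps gave values of 6 decimals (within 0.01 of the last decimal) in 27069 of 27216 rows, and 7260 rows have names that begin with NewGene_. The submitters' processing notes name Bowtie2 2.1.0, STAR, edgeR and hg38, without roles. The study's methods name a test that needs counts, so limma 3.58.1 in R 4.3.3 was used (lmFit, eBayes with an intensity trend, unpaired) over the 12656 rows with a mean of at least 1, with Benjamini-Hochberg adjustment over all of them and a threshold of 0.05. The fit was tested on simulated data. No depth can be given, and the spread between samples is the only error. Sums, ratios and exact permutation tests (two-sided) used Python 3.11, pandas 2.3.3 and SciPy 1.17.1.

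The members and gene lists were chosen with earlier results of these data known. Named genes were all 10 members, the wider BCL2 family and, of each other list, the called genes without overlap between groups that had the largest rises and falls, at most 3 each way. Some results for genes chosen this way are not reported here. BIRC6, BIRC7, NAIP, CASP6, ENDOG, CYCS, FOXO1, FOXO3 and single markers were named with their values in view. Alternatives tried: a pseudocount of 0.1 in place of 1, no filter or a mean of at least 3, quantile normalization, equal sums with and without mitochondrially encoded genes, median centring, eBayes without the trend or robust, leaving out NewGene_ rows or rows off the grid, subtracting the constants, a replicate block, leaving out each sample, and a log2 difference of at least 1. Subtracting the constants without a filter, and a BH3-only sum with BAD, BID and HRK, were added after the data were seen.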

Additional observations from a re-analysis of the deposited data

How the results depend on the processing

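Of 180 recomputed log2 differences of the members, 176 kept their direction and their side of the threshold or stayed within the replicate spread. The exceptions were BCL2, at 0.05 with the constants subtracted (with and without the filter) and 2.57 with a pseudocount of 0.1, and BAX, at 0.35 with an adjusted p of 0.0878 (limma) with no filter and the constants subtracted. Of 787 recomputed values of the list genes, 755 did the same. Both counts include alternatives that cannot move a log2 difference: the filters, the eBayes options, the replicate block and leaving out rows. These can change only the adjusted p. Subtracting the constants changes the values of no members but BAX and BCL2. BCL2 without the filter was counted as kept, although it went from untested to called. Leaving out 1 replicate turned the direction of BAD (-0.022 to 0.12) and CYCS (-0.19 to 0.032), neither of which was called. The number of rows called was 7202, and it was 4532 with the stricter filter and 1328 with a log2 difference of at least 1, both by construction. That last threshold left 2 members higher and 1 lower. The stricter filter leaves out BBC3, and leaving out rows off the grid leaves out BAX.

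The replicate numbers gave no sign of pairing: deviations of same-numbered samples correlated at -0.05, -0.03 and -0.02. Differently numbered samples correlated at between -0.04 and 0.07. These values do not settle whether the samples were paired. With the replicate block 6761 rows were called, and 5 members were higher and 4 lower. Values near 0 FPKM, as for BCL2, are limited by an unknown depth.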
